A study of Homo sapiens with 4 samples.

Results

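The factors that switch on replication-dependent histone genes or cut the ends of their mRNAs were followed in Jurkat cells after transfection with siRNA against LEF1. They comprise 10 genes, NPAT, CASP8AP2, SLBP, ERI1, LSM10, LSM11, ZNF473, CPSF2, CPSF3 and SYMPK, read by 23 of the 54613 probe sets tested. The genes were chosen by name from their known function, with earlier results of these data known. Jurkat is an established human T-cell acute lymphoblastic leukemia line. The siLEF1 group, 2 arrays, came from cells transfected with a pool of siRNAs against LEF1 at 100 nM, and the siNT group, also 2 arrays, from cells given a pool of non-targeting siRNAs at the same dose. In both groups RNA was taken 24 h after transfection with the HiPerFect reagent. The labels call the replicates biological and do not say whether they came from separate cultures, so p-values measure the spread between these arrays only. An siRNA can lower an mRNA without removing it, and a single line was used.

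Replication-dependent histone genes are active in S phase, when new DNA has to be packed into nucleosomes. Their transcripts carry no introns and end in a conserved stem-loop in place of a poly(A) tail. NPAT, phosphorylated by cyclin E and CDK2, switches on their transcription in nuclear foci called histone locus bodies, where CASP8AP2 is found as well. For the cut, SLBP holds the stem-loop, the U7 small nuclear ribonucleoprotein (snRNP) with LSM10 and LSM11 pairs with a downstream element, and a complex of SYMPK, CPSF2 and CPSF3 is brought in, of which CPSF3 is the nuclease. The 3' IVT labelling used for these arrays starts from poly(A) tails, and the mRNAs of the 10 factors carry ordinary tails. By that protocol a histone signal would come from tailed RNA, though no tail was measured here.

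Promoter windows from RefSeq (GRCh38.p14) were at hand for 8 of the 10 genes and not for ERI1 and ZNF473. The 250 bases before the gene start were searched on both strands for the LEF1/TCF core (CTTTGA or CTTTGT), the CCAAT box (CCAAT) and an E2F word (TTTGGCGC, TTTCGCGC, TTTCCCGC or TTTGCCGC). The LEF1/TCF core was in 0 of the 8 windows, against 22.9% of 27305 windows of that length. CCAAT was in 4, those of NPAT, CASP8AP2, LSM10 and CPSF2, against 33% of all windows, and the E2F word in 2, those of CASP8AP2 and CPSF3, against 2.79% of all windows. The windows of NPAT and CASP8AP2, which act in transcription, and of SLBP, which acts on the mRNA, are printed to show a window with CCAAT alone, a window with both CCAAT and E2F words and a window with no match. Capitals mark the matches. In CASP8AP2 the E2F word lies 149 to 142 bases before the gene start, and SLBP holds none of the motifs. A match is a run of letters and no measured site, and no binding was measured here.
NPAT, chr11:108222639-108222888, minus strand: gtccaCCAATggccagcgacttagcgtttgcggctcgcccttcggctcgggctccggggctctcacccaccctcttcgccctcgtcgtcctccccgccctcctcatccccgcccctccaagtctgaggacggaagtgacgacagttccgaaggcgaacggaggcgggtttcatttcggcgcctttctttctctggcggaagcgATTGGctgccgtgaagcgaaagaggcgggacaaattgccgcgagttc
CASP8AP2, chr6:89829630-89829879, plus strand: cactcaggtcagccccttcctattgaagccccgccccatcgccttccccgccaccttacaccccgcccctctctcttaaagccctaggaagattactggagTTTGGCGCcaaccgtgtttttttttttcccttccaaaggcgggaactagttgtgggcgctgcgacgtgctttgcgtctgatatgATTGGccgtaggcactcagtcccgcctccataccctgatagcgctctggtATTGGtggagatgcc
SLBP, chr4:1712320-1712569, minus strand: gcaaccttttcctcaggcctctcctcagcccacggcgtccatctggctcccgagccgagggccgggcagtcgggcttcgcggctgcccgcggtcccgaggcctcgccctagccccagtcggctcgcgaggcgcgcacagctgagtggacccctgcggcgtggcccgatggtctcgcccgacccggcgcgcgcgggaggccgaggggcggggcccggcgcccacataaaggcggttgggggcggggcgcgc

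LEF1 itself was read by 3 probe sets. In the brightest, signals were 11.24 and 11.56 on the siLEF1 arrays, against 12.30 and 11.92 on the siNT arrays (log2 RMA units), and the log2 fold change of -0.71 did not pass (adjusted p = 0.191 from limma). Both siLEF1 arrays lay under both siNT arrays in that probe set and in the next brightest, while in the dimmest they overlapped. Of the T-cell markers, 9 of 10 lay above the array median on all arrays. So did 4 of 6 epithelial and stromal, 2 of 3 erythroid, 2 of 5 B-cell and 1 of 5 myeloid markers. This measure alone therefore does not single out T cells. Summed linear signals of the T-cell markers were 16330 to 16790 in siLEF1 and 12000 to 15600 in siNT. Those of the 5 B-cell markers were 159.1 to 167.7 in siLEF1 and 157.2 to 171.2 in siNT, and those of the 6 epithelial and stromal markers 596.3 to 623.2 in siLEF1 and 611.3 to 682.3 in siNT. The 5 myeloid markers summed to 104.6 to 123.3 in siLEF1 and 128.4 to 144.1 in siNT. The 3 erythroid markers summed to 154.5 to 163.6 in siLEF1 and 199.8 to 258.3 in siNT. The sums of T-cell markers were thus higher in siLEF1, and those of myeloid and erythroid markers lower, with no overlap of the groups. Single markers did not all go with their sum. By log2 fold change 8 T-cell markers were above 0 and 2 below, 2 myeloid markers above and 3 below, and all 3 erythroid markers below. In siNT, LYZ was highest on replicate 1 (4.59) and CD14 on replicate 2 (5.58), so different genes raised the myeloid sums there. RNA quality also moved with the group: the 5' minus 3' signal of the ACTB control probe sets was -1.08 and -1.55 in siLEF1, against -1.80 and -1.95 in siNT. The part of these marker and RNA quality differences in the values of the 10 factors was not tested.

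None of the 10 factors was called changed. A call needed an adjusted p under 0.05 from limma and a fold change over 2, and 0 of the 23 probe sets met it in either direction, where 0.183% of all probe sets were called lower and 0.0238% higher. The smallest adjusted p among the 23 was 0.225, for ZNF473. At an unadjusted p under 0.05 from limma, 1 probe set was lower (4.35%, against 8.79% of all probe sets), that of ZNF473. At the same p, 2 were higher (8.7%, against 6.85% of all), those of LSM11 and NPAT. The F test without moderation gave 2 probe sets under that p. Its 0 calls were fixed in advance, because it leaves the fold changes as they were and 0 of the 23 were over 2-fold. In 7 probe sets both siLEF1 arrays lay below both siNT arrays (30.4%, against 21.2% of all probe sets), and in 8 both lay above (34.8%, against 27.4% of all). With arrays centred on housekeeping genes this split was 10 below and 2 above, where 36.5% of all probe sets lay below and 9.9% above.

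With the brightest probe set standing for its gene, 5 factors had a log2 fold change above 0 and 5 below, between -0.91 and 0.46. Their median was -0.03, beside 0.02 over the 19775 genes of the array and 0.04 over all probe sets. Both siLEF1 arrays lay below both siNT arrays in 5 of the 10 genes (50%, against 26.4% of all genes by their brightest probe set) and above them in 4 (40%, against 28.1% of all genes). At an unadjusted p under 0.05 from limma 1 gene was lower and 1 higher (10% each, against 11.5% and 7% of all genes). In 7 of the 10 the value was smaller than 0.3 in size. In the brightest probe sets of 9 of the 10 genes the whole 95% interval from limma stayed within a 2-fold change in either direction, and ZNF473 was the exception. Over all 23 probe sets the interval did so in 19. Intervals of dimmer NPAT and LSM11 probe sets also passed 2-fold, at their upper ends. These intervals rest on 2 arrays per group and on the spread shared across probe sets. In RNA from whole cultures, fewer cells that express a gene and less of its RNA per cell cannot be told apart.

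**Figure D1:**
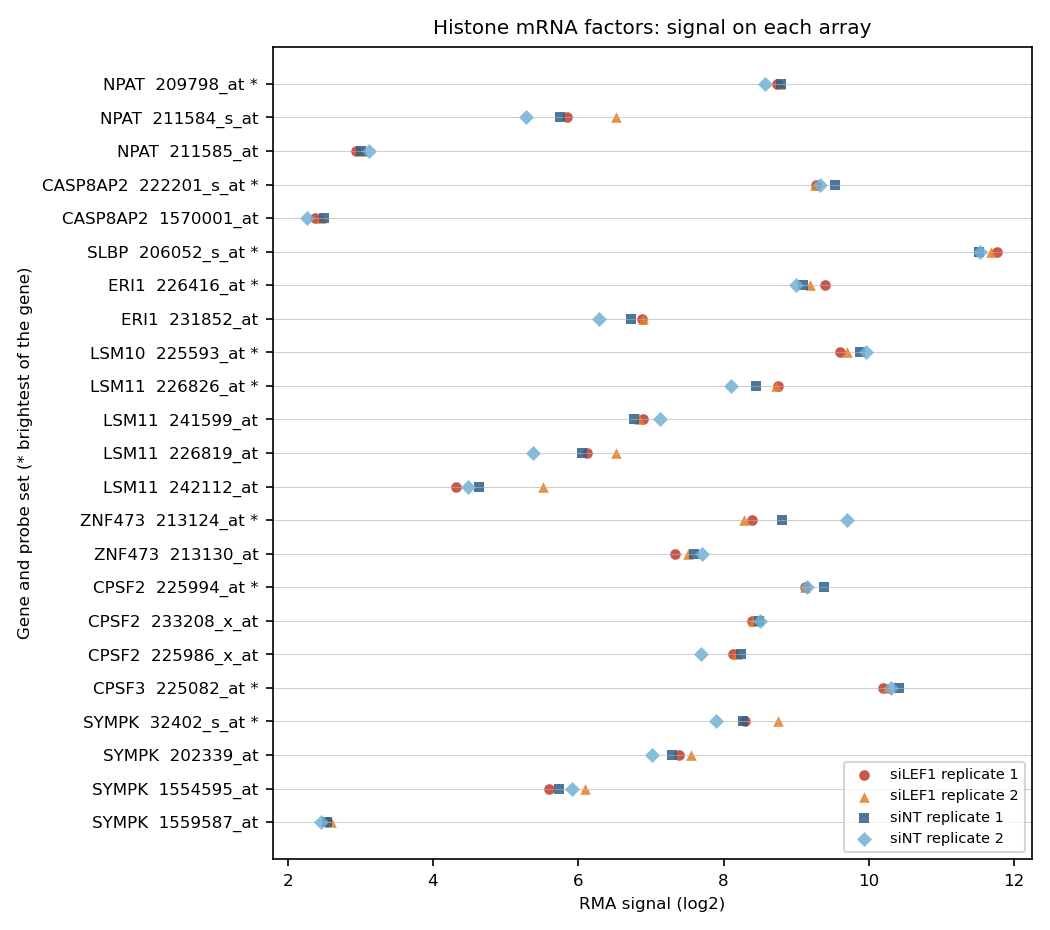
Signal of each array in log2 RMA units (horizontal axis) for the 23 probe sets of the 10 factors, with circles and triangles for the siLEF1 replicates and squares and diamonds for the siNT replicates, and an asterisk at the brightest probe set of each gene. The 4 arrays lie close together in most rows, and the widest range over the arrays is in ZNF473, where siNT replicate 2 stands at 9.70 and the other arrays at 8.29 to 8.80.

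**Figure D2:**
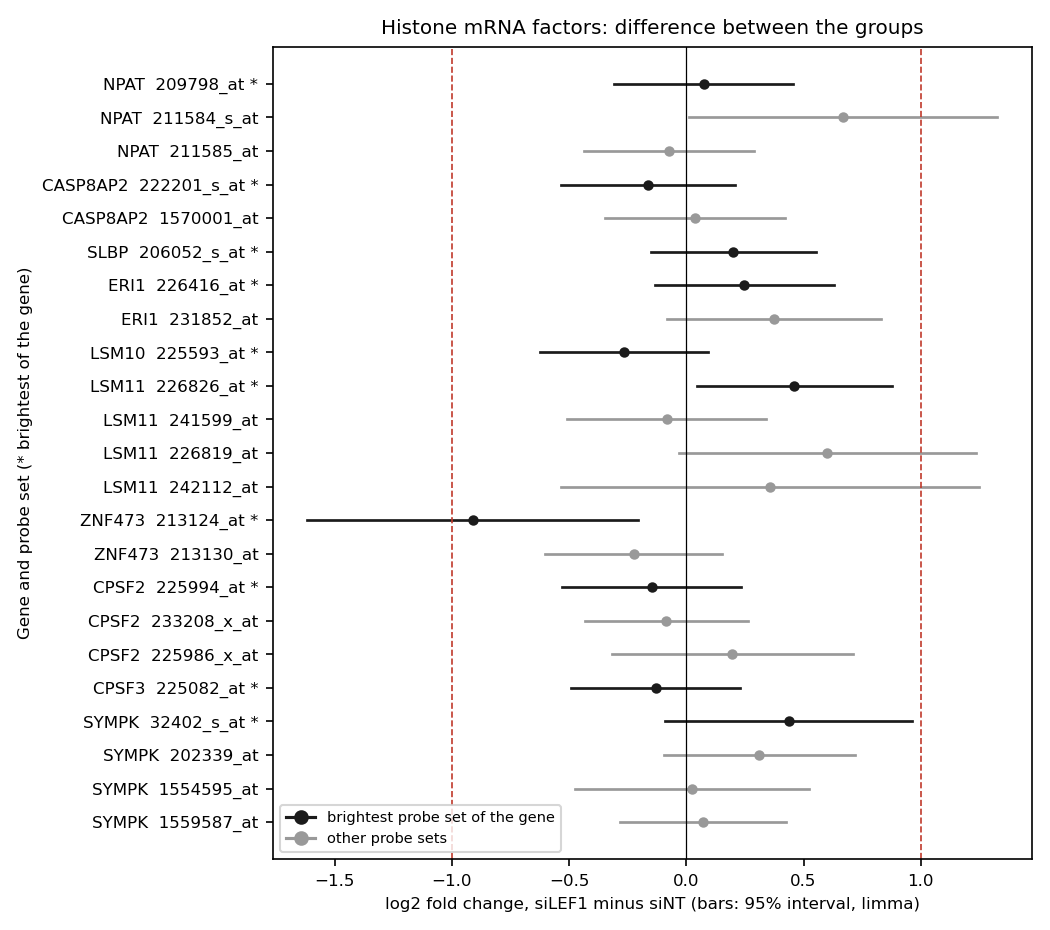
Log2 fold change, siLEF1 minus siNT, of the same 23 probe sets (points) with the 95% interval from limma (bars), black for the brightest probe set of a gene and grey for the others, with dashed lines at a 2-fold change. Among the black bars the line is crossed by ZNF473 alone, and among the grey bars by probe sets of NPAT and LSM11.

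Among the factors of transcription, NPAT hardly differed between the groups. Its brightest probe set had signals of 8.74 and 8.77 in siLEF1, against 8.79 and 8.57 in siNT. The siLEF1 arrays lay between the siNT arrays. The log2 fold change was 0.07 (95% interval -0.31 to 0.46, adjusted p = 0.87 from limma), and its sign depended on the setting, since it was -0.12 with arrays centred on housekeeping genes and -0.04 without siNT replicate 2. A second NPAT probe set, whose ID ends in _s_at and marks probes that can match more than 1 transcript, read 5.85 and 6.52 in siLEF1, against 5.75 and 5.28 in siNT. There both siLEF1 arrays lay above both siNT arrays, the log2 fold change was 0.67 (95% interval 0.01 to 1.33, adjusted p = 0.313 from limma), and the siLEF1 replicates differed from each other by as much as 0.67. The third NPAT probe set, at 2.94 to 3.12, lay under the array median of 4.84 on every array.

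CASP8AP2, also known as FLASH, gathers at histone locus bodies and binds LSM11 so that the cutting complex can be recruited. The brighter of its 2 probe sets read 9.27 and 9.26 in siLEF1, against 9.53 and 9.33 in siNT. Both siLEF1 arrays were lower, though close to siNT replicate 2, and the log2 fold change was -0.16 (95% interval -0.54 to 0.21, adjusted p = 0.671 from limma). The other probe set stayed between 2.27 and 2.50 on all arrays, under the array median, and its log2 fold change of 0.04 carries little information about the gene.

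SLBP, the protein that stays with a histone mRNA from its cutting through export and translation, was read by a single probe set. Its signals were 11.77 and 11.68 in siLEF1, against 11.52 and 11.53 in siNT. Both siLEF1 arrays lay above both siNT arrays, and the siNT replicates differed by only 0.01. The log2 fold change was 0.20 (95% interval -0.15 to 0.55, adjusted p = 0.57 from limma), and that interval corresponds to 90.0% to 147% of the siNT level. With arrays centred on housekeeping genes the log2 fold change was 0.01. The probe set stood in the top of every array, between percentiles 98.4 and 98.7, so a low signal does not limit this reading. Its ID ends in _s_at, however, as do those of the brightest probe sets of CASP8AP2 and SYMPK. The probes can thus match more than 1 transcript.

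ERI1, the exonuclease known as 3'hExo that trims the end of a histone mRNA after the cut, gave values on the same side as SLBP. Its brighter probe set read 9.40 and 9.19 in siLEF1, against 9.10 and 9.00 in siNT. The dimmer one read 6.87 and 6.89 in siLEF1, against 6.72 and 6.29 in siNT. In both probe sets the siLEF1 arrays were above the siNT arrays, with log2 fold changes of 0.25 (95% interval -0.14 to 0.63) and 0.37 (-0.08 to 0.83), and neither passed (adjusted p = 0.515 and 0.407 from limma). Housekeeping centring brought the brighter probe set to 0.06.

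In the U7 snRNP, LSM10 and LSM11 take the places that SNRPD1 and SNRPD2 hold in the Sm ring of spliceosomal snRNPs. LSM10 had signals of 9.60 and 9.70 in siLEF1, against 9.87 and 9.96 in siNT. The siLEF1 arrays were the lower pair, and the log2 fold change was -0.27 (95% interval -0.63 to 0.09, adjusted p = 0.453 from limma). LSM11 lay the other way in its brightest probe set, with 8.75 and 8.72 in siLEF1, against 8.44 and 8.10 in siNT. Among the brightest probe sets this was the highest value with all arrays, though SYMPK was higher without siLEF1 replicate 1 (0.66, against 0.44 in LSM11). The log2 fold change of LSM11 was 0.46 (95% interval 0.04 to 0.88), and it did not pass (adjusted p = 0.282 from limma). The difference between LSM10 and LSM11 was not itself tested.

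The 4 probe sets of LSM11 did not all side with the brightest. One had 6.89 and 6.83 in siLEF1, against 6.77 and 7.12 in siNT, with overlapping groups and a log2 fold change of -0.08. Another had 6.12 and 6.51 in siLEF1, against 6.05 and 5.38 in siNT, with separate groups and a difference of 0.60 (limma, adjusted p = 0.342). The dimmest read 4.32 and 5.51 in siLEF1, against 4.63 and 4.49 in siNT. Its siLEF1 replicates were 1.20 apart, the widest gap between replicates of a group among all 23 probe sets.

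ZNF473, or ZFP100, is a zinc finger protein that binds LSM11 and the complex of SLBP with the stem-loop, and its brighter probe set had the lowest value of all 23. The brighter probe set read 8.39 and 8.29 in siLEF1, against 8.80 and 9.70 in siNT. Both siLEF1 arrays were below both siNT arrays, but the siNT replicates were 0.90 apart. The log2 fold change was -0.91 (95% interval -1.62 to -0.21), a level 1.88-fold higher in siNT, and it did not pass (adjusted p = 0.225 from limma). The result turned on the siNT arrays: the log2 fold change was -1.36 and was called without siNT replicate 1 (adjusted p = 0.0428 from limma), where the lone siNT array is assumed to vary like the siLEF1 pair. In that fit 1882 of all probe sets, or 3.45%, were called, and so was 1 of the 23. Without siNT replicate 2 it was -0.46 (adjusted p = 0.398 from limma). It was also called with arrays centred on housekeeping genes, at -1.10 (adjusted p = 0.0431 from limma), where 3.62% of all probe sets were called. Before that centring the 14 housekeeping genes themselves ran from -0.73 to 0.68 in log2 fold change, so this call rests on a scattered reference. Over its 12 alternative settings the log2 fold change of ZNF473 ran from -1.36 to -0.46. The dimmer probe set of ZNF473 had 7.33 and 7.51 in siLEF1, against 7.59 and 7.70 in siNT, which is the same order of the groups with a value nearer to 0, -0.22 (limma, adjusted p = 0.551).

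The cutting complex is shared in part with ordinary polyadenylation, and CPSF3, its nuclease, read 10.20 and 10.25 in siLEF1, against 10.42 and 10.30 in siNT. Both siLEF1 arrays were slightly lower, with a log2 fold change of -0.13 (95% interval -0.49 to 0.23, adjusted p = 0.73 from limma). CPSF2, the inactive partner of the nuclease, had 9.11 and 9.12 in siLEF1, against 9.38 and 9.15 in siNT in its brightest probe set, or -0.15 on the log2 scale (limma, adjusted p = 0.712). The other 2 CPSF2 probe sets, whose IDs end in _x_at and mark probes that can hybridize to other genes, had log2 fold changes of -0.09 and 0.20, and in the second of them siNT replicate 2, at 7.69, stood below the other arrays, at 8.13 to 8.24.

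SYMPK encodes symplekin, the scaffold that holds this complex together. Its brightest probe set read 8.29 and 8.75 in siLEF1, against 8.27 and 7.90 in siNT. The groups did not overlap, though siLEF1 replicate 1 and siNT replicate 1 were nearly level, and the log2 fold change was 0.44 (95% interval -0.09 to 0.96, adjusted p = 0.405 from limma). The next probe set had 7.38 and 7.54 in siLEF1, against 7.29 and 7.02 in siNT, or 0.31 on the log2 scale (limma, adjusted p = 0.441). In the remaining pair the groups overlapped and the log2 fold changes were 0.02 and 0.07, the dimmer of them under the array median on every array. All 4 SYMPK values were thus above 0, as were both of ERI1, while both of ZNF473 were below 0.

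The siNT replicates lay further apart in these genes than the siLEF1 replicates did. In 15 of the 23 probe sets siNT replicate 2 was lower than siNT replicate 1. The median absolute difference over the 23 was 0.087 between the siLEF1 replicates and 0.226 between the siNT replicates, beside 0.147 and 0.206 over all probe sets. SLBP, ERI1, LSM11 and SYMPK were higher in siLEF1 against either siNT array, with values of 0.21, 0.20, 0.29 and 0.25 against siNT replicate 1 and of 0.20, 0.30, 0.63 and 0.62 against siNT replicate 2. LSM10, CPSF2, CPSF3, CASP8AP2 and ZNF473 were lower against either, with -0.22, -0.26, -0.19, -0.26 and -0.46 against siNT replicate 1 and -0.31, -0.03, -0.07, -0.06 and -1.36 against siNT replicate 2. In CPSF2, CPSF3 and CASP8AP2 the difference from replicate 2 was thus under 0.1 in size. NPAT was at -0.04 against replicate 1 and at 0.19 against replicate 2.

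**Figure D3:**
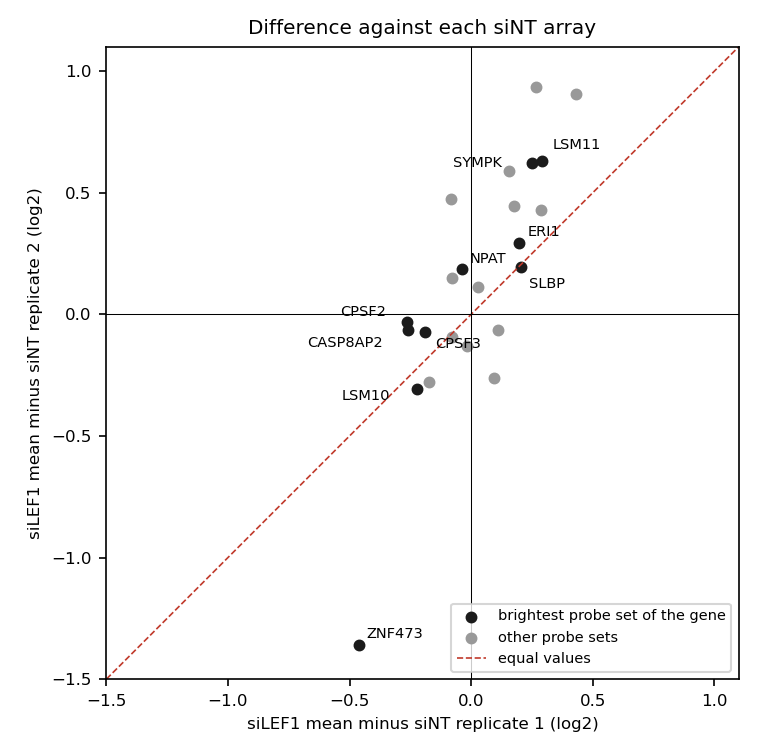
Mean of the siLEF1 arrays minus siNT replicate 1 (horizontal axis) and minus siNT replicate 2 (vertical axis), both on the log2 scale, for the 23 probe sets, black for the brightest of a gene and grey for the others, with a dashed line where both are equal. ZNF473 lies far from the line, at -0.46 and -1.36, and SLBP lies on it, at 0.21 and 0.20.

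Other genes of histone mRNA metabolism were described with the brightest probe set of each gene. In the lists up to S phase 0 genes had an adjusted p under 0.05 from limma, where 52 of all 19775 genes were lower and 13 higher. Counts at an unadjusted p under 0.05 from limma are given with each list. They are to be read beside the shares of all genes at that p, 11.5% lower and 7% higher. The 5 Sm proteins that U7 shares with spliceosomal snRNPs had a median log2 fold change of 0.15, with 0 genes under an unadjusted p of 0.05, and SNRPD3, the gene with the smallest p, had a log2 fold change of 0.27. SNRPD1 and SNRPD2, which LSM10 and LSM11 replace, had 0.22 and 0.15. In 16 measured cleavage and polyadenylation factors outside the 10 genes the median was -0.09, and 2 were lower at an unadjusted p under 0.05: FIP1L1, which binds the poly(A) polymerase, at -0.68 and the poly(A) polymerase gene PAPOLG at -0.75. PAPOLG read 8.55 and 8.42 in siLEF1, against 8.86 and 9.61 in siNT, so that siNT replicate 2 stood apart there as in ZNF473.

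The 9 other factors of histone gene transcription that were measured had a median log2 fold change of -0.02. CCNE2, a cyclin that activates CDK2, had 0.54, and HINFP, which binds histone H4 promoters and works with NPAT, had -0.77, both at an unadjusted p under 0.05. HINFP signals were 8.14 and 8.07 in siLEF1, against 8.45 and 9.30 in siNT. The gap between the siNT replicates, 0.85, exceeded the log2 fold change. Among 8 genes that act on SLBP stability the median was 0.15, and CCNF, whose protein marks SLBP for destruction in G2, had 0.55 and was the only one under that p. Medians were -0.13 over 9 genes of cap binding, export and translation of histone mRNA, with 0 genes under that p, and 0.13 over 19 genes of its decay. Of the decay genes 2 were lower and 2 higher under that p, where 11.5% of all genes were lower and 7% higher. Among these 4 the smallest p values were those of the exosome subunit EXOSC9 at -0.55, PRKDC at 0.60 and the decay factor LSM4 at 0.54.

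Of the measured genes of S phase, 18 of 18 had a log2 fold change above 0, against 53.5% of all genes, with a median of 0.37 and 5 higher at an unadjusted p under 0.05, against 7% of all genes. Without siNT replicate 2, and with arrays centred on housekeeping genes, 16 of 18 were above 0. POLE2, a subunit of DNA polymerase epsilon, had signals of 10.03 and 9.76 in siLEF1, against 9.43 and 8.82 in siNT. In this list too the siNT replicates differed, by a median of -0.52 for replicate 2 minus replicate 1, and against replicate 1 alone its median was 0.15. With arrays centred on housekeeping genes, which moved the median of all probe sets by -0.19, the S phase median was 0.18 and that of the 10 factors -0.22. The same centring turned the medians of the shared Sm proteins (-0.04), the Sm proteins that U7 lacks (-0.01), the SLBP stability genes (-0.04) and the decay genes (-0.06) below 0, and those of cap binding, export and translation and of the other cleavage factors were then -0.32 and -0.28. Without siNT replicate 2 the medians were 0.02 for SLBP stability, 0.03 for decay, -0.03 for cap binding, export and translation, 0.01 for the other cleavage factors and 0.03 for the other transcription factors.

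**Figure D4:**
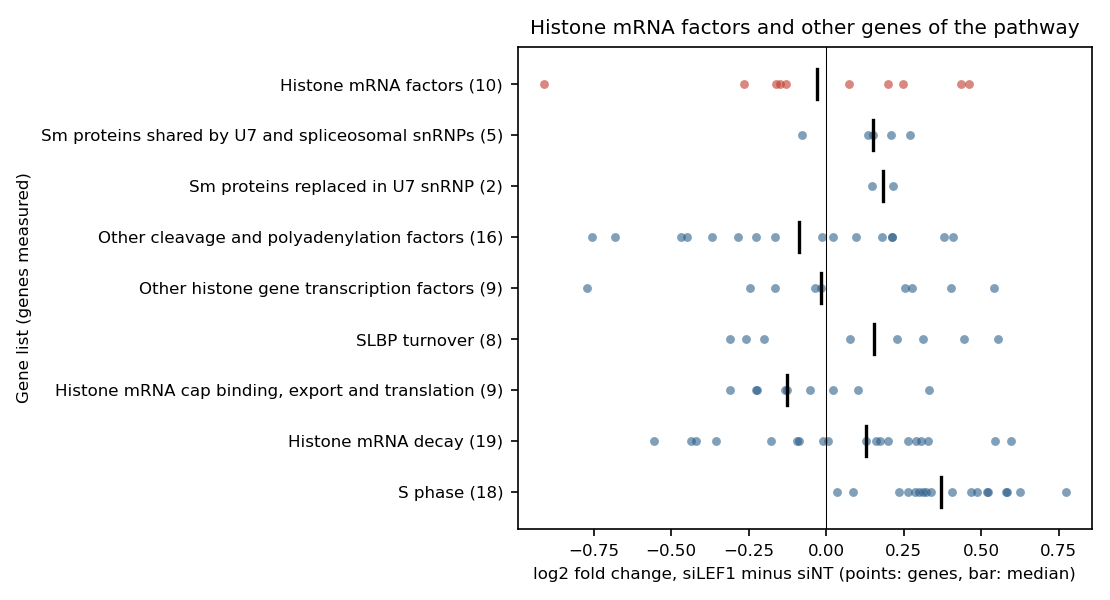
Log2 fold change, siLEF1 minus siNT, of single genes (points) with the median of each list (bars), for the 10 histone mRNA factors in red and for other genes of the pathway in blue, with the number of genes measured in brackets. The factors scatter on both sides of 0 around a median of -0.03, and the 18 S phase genes lie above 0 around 0.37, while 16 of 18 do so with housekeeping centring.

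The histone genes that these factors serve were far from them on the same arrays. Over the 41 replication-dependent histone genes measured the median log2 fold change was -1.11, against -0.03 over the 10 factors, and the lowest histone value was -4.19, against -0.91 in ZNF473. The histone median was -0.57 without _x_at and _s_at probe sets, -1.48 without siNT replicate 1 and -0.74 without siNT replicate 2. It was -2.83 over probe sets with a mean signal of at least 6. That mean is taken over all 4 arrays, so genes high only in siNT can pass it, and the value leans to larger drops. The median signal of the histone genes lay between 4.26 and 5.81 on the 4 arrays and that of the factors between 9.16 and 9.24, and how far a change in tailing rather than in amount enters the histone values was not tested.

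By distance between profiles centred on their own mean, the genes nearest to SLBP among 10324 with a mean signal of at least 6 were ZDHHC11, KIF20A and MZT1, at distances of 0.0139, 0.0173 and 0.0181 log2 units over the 4 arrays. KIF20A, a kinesin of mitosis, read 9.20 and 9.13 in siLEF1, against 8.96 and 8.98 in siNT. Nearest to NPAT were RNF126, MBNL1 and POLR2G, at 0.0130, 0.0168 and 0.0175. With only 4 arrays such likeness is a description.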

How the data were processed

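The 4 arrays were Affymetrix HG-U133 Plus 2.0. Signals had been summarised by the authors with RMA in Expression Console, for which the submitters' processing notes give version 1.1, and were used as deposited, in log2 units per probe set. Whether further arrays were part of that RMA run is not given in the sources used here. No normalization was added. After removal of 62 control probe sets, siLEF1 minus siNT was tested over 54613 probe sets by limma (3.58.1, under R 4.3.3), using moderated 2-sided tests from lmFit and eBayes (2 residual and 4.3 prior degrees of freedom, Benjamini-Hochberg adjustment). The methods of the study compare 3 groups, and here 2 were compared. Symbols came from the platform annotation, updated by Entrez number for 41037 of 41091 probe sets with 1 symbol, and 0 probe sets of the 10 genes carried several. The brightest probe set, by its mean over the arrays, stood for a gene. All 10 genes are named with each probe set, and from each list of other genes up to 3 of those with the smallest p. The 3 genes nearest in profile to SLBP and to NPAT are named too. The genes and lists were chosen with earlier results of these data known. The model was tested on simulated data. Alternatives changed the moderation, the scaling, the filter on dim probe sets (a mean log2 signal of 6), the probe sets used, the fold threshold, the replicate block and the arrays. The number of arrays limits the precision.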

Additional observations from a re-analysis of the deposited data

How the results depend on the processing

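No alternative run called more than 1 of the 23 probe sets, and that 1 was always ZNF473: with arrays centred on housekeeping genes (1 call, 1 probe set under an unadjusted p of 0.05, median log2 fold change of the 10 genes -0.22) and without siNT replicate 1. Leaving out each array in turn gave 0 to 1 calls, 0 to 7 probe sets under an unadjusted p of 0.05 (6.75% to 23.8% of the whole array) and a median of -0.1149 to 0.0774, where siNT replicates 2 and 1 set the ends of the median. Over the whole array 1882 probe sets were called without siNT replicate 1 and 0 without each other array. The median was 0.0364 without probe sets ending in _x_at or _s_at, which leaves SLBP without a value, and 0.0707 over all probe sets of the members. With only the brightest probe set of each gene, 9 of 10 had groups that did not overlap, 5 lower and 4 higher, against 26.4% and 28.1% of all genes. NPAT changed sign with housekeeping centring (-0.12), and over the arrays left out it ran from -0.0389 to 0.19. CASP8AP2 changed sign without _x_at and _s_at probe sets (0.0364), where its dim probe set stands for it. The other 8 genes kept their sign in all alternatives run, though housekeeping centring left SLBP at 0.01 and ERI1 at 0.06. Of 119 values, 114 kept both sign and side of the threshold. Many of these could not change sign, since other moderation, the replicate block and the filter on dim probe sets leave each log2 fold change as it was. The count is thus no measure of stability. With the replicate block, 2 probe sets were under an unadjusted p of 0.05 from limma. The block leaves each fold change as it was, and 0 of the 23 were over 2-fold. Its 0 calls were therefore fixed in advance and say nothing on stability. Same-numbered arrays deviated with a correlation of -0.15. With 2 arrays per group this cannot settle whether the numbers pair the arrays. Crossed pairing, chosen after seeing the data, gave 5 probe sets under that p (18.4% of the whole array). It too leaves the fold changes as they were, so its 0 calls were fixed in advance. Housekeeping centring left those 14 genes at a median of -0.04, against 0.15 before, and called 1883 probe sets of the array lower and 92 higher. Before centring the 14 genes ran from -0.73 to 0.68 in log2 fold change. All values with this centring, sign changes among them, thus rest on a scattered reference. The 6 of 23 probe sets with a mean signal under 6 limit what can be read of them.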
